A study of Mus musculus with 2 samples.

Results

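The Schlafen family genes Slfn1, Slfn2, Slfn3, Slfn4, Slfn5, Slfn8 and Slfn9 were described in mouse spleen. They were chosen by symbol, with their values in these libraries already known, and make up 7 of the 22216 gene rows of the deposited table. Whole spleen RNA was sequenced from mice of genotype NOD.g7 and from mice of genotype NOD.L7, with 1 library per genotype, each made from the pooled spleens of 3 mice. NOD (non-obese diabetic) mice are inbred and are prone to diabetes of autoimmune origin. The series title writes NOD and NOD.Lc7 for the same 2 kinds of mice, and the labels give neither age, sex nor treatment, nor what g7, L7 or Lc7 stand for. Values are given for NOD.g7 first and for NOD.L7 second unless stated. Levels are RPKM values, which are scaled to gene length and library size. Comparing them between genes assumes that reads were counted alike for each gene, which is not known where genes share sequence. There were no replicates, so every difference is one between these 2 libraries and has no test. Because whole spleen was used, fewer cells of a type and less RNA per cell cannot be told apart.

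Schlafen genes encode a family of mammalian proteins named after the German word for sleeping, because the first members found slowed the growth of T cells. Their shared Slfn core domain can bind and, in some members, cleave RNA such as tRNA, and many of the genes are induced by type I interferon through the transcription factor complex ISGF3. Mouse members are usually sorted by size into short proteins (Slfn1 and Slfn2), intermediate proteins (Slfn3 and Slfn4) and long proteins that add a helicase-like part (Slfn5, Slfn8 and Slfn9).

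The sequences bear on how far the members can be told apart and on interferon control. The coding sequences of the matched GENCODE M21 transcripts, without the stop codon, were 1011 bases in Slfn1, 1134 in Slfn2, 1551 in Slfn3, 1806 in Slfn4, 2652 in Slfn5 and 2730 in both Slfn8 and Slfn9. Slfn9 and Slfn8 were identical at 92.7% of their 2730 aligned coding bases, with 199 mismatches and a longest identical run of 139 bases. Slfn3 and Slfn4 were identical at 95.3% of 1521 paired bases, while Slfn1 and Slfn2 were identical at 71.9% of 1002. The starts of the coding sequences of Slfn9 and Slfn8 are shown, a stretch with more mismatches per base than their full alignment. Capitals mark the 10 mismatches in these 60 bases.
Slfn9: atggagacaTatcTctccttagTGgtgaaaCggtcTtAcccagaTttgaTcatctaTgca
Slfn8: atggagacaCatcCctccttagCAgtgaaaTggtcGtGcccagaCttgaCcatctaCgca

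The stretch of Slfn3 from its first coding base, beside the stretch of Slfn4 from its coding base 268, shows a closer match, with 2 mismatches in 60 bases.
Slfn3: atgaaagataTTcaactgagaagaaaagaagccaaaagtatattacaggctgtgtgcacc
Slfn4: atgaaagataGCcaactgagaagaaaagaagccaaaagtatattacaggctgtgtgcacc

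Promoters were taken from RefSeq on GRCm38.p6, where all 7 members matched by symbol, with 8 promoters because Slfn8 has 2 start sites. Each window of 300 bases around a start was searched on both strands for GAAA followed after any 2 bases by GAAA, the core of the interferon-stimulated response element (ISRE) bound by ISGF3. These letters were found in the promoters of 3 members, the long Slfn5, Slfn8 and Slfn9, and in none of the windows of Slfn1, Slfn2, Slfn3 and Slfn4. Among all 32851 promoters in the RefSeq table, 3.44% held them. In Slfn9 the match began 45 bases before the start, in Slfn8 48 bases before its upstream start and in Slfn5 155 bases before the start. The interferon gamma element, TTC followed after any 3 bases by GAA, was in no member's window and in 8.30% of all promoters. A match describes letters and not binding, and a window without one says nothing about the factor. The 160 bases before the start are shown on the gene's own strand for the 3 members with a match and for Slfn2, the most abundant member, with the ISRE core in capitals, at chr11:82991831-82991990 for Slfn9, chr11:83020811-83020970 for Slfn8 (both on the minus strand), chr11:82951942-82952101 for Slfn5 and chr11:83064952-83065111 for Slfn2 (both on the plus strand).
Slfn9: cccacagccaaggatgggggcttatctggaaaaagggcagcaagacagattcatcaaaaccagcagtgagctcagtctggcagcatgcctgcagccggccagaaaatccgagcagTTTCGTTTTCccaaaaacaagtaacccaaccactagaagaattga
Slfn8: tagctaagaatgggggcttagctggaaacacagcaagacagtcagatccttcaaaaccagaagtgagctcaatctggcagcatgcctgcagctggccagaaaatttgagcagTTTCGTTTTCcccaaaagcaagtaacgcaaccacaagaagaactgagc
Slfn5: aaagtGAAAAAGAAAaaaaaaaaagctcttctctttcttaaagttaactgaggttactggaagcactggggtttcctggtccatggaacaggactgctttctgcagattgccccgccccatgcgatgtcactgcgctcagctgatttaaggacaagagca
Slfn2: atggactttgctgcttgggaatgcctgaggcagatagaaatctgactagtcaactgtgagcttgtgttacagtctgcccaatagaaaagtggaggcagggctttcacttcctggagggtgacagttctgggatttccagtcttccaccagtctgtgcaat

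The 10 capital letters of Slfn9 and Slfn8 are the same. The 250 bases before the start of Slfn9 and before the upstream start of Slfn8 were identical at 79.8% of 258 alignment columns.

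The family as a whole was at nearly the same level in both libraries, but not all of its members were. Summed over the 7 genes, the RPKM was 283 and 281. The long members were together at 56.8 and 41.2, the short members at 219 and 231 and the intermediate members at 7.36 and 9.40. All 3 long members were thus lower in NOD.L7, and all 4 short and intermediate members were higher. The log2 ratio used throughout is log2(RPKM + 1) of NOD.L7 minus log2(RPKM + 1) of NOD.g7, a scale on which changes of low genes look smaller than they are. Among the 11141 genes that reached an RPKM of 1 in either library, called kept here, 43.8% had a ratio below 0 and 56.2% one above 0. All 7 members were kept, and 1 of them, Slfn9, passed the size rule of an absolute log2 ratio of at least 1, which 0.709% of kept genes passed. These differences were known when the members were chosen and are given as a description.

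**Figure D1:**
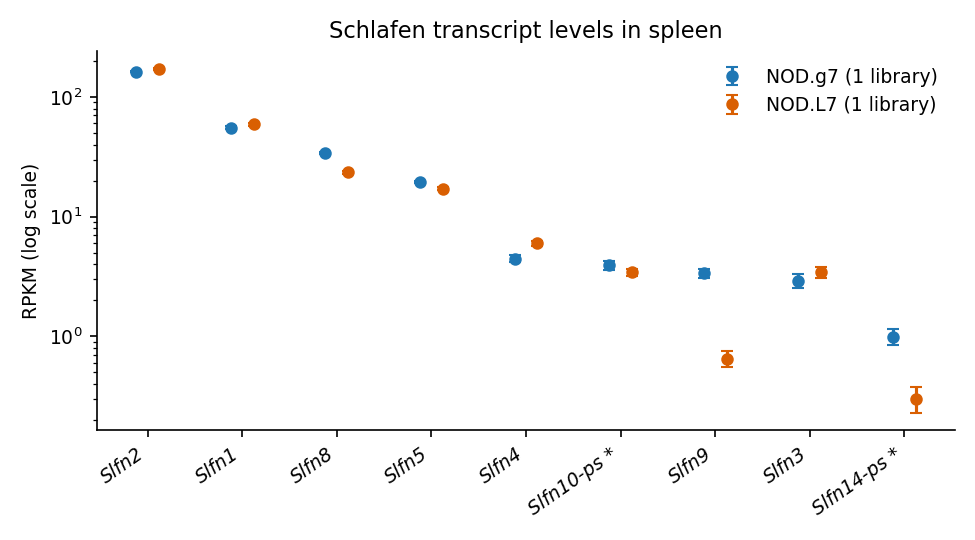
RPKM (vertical, log scale) of the 7 Schlafen members and of 2 further Schlafen rows, marked with an asterisk, in the NOD.g7 and NOD.L7 libraries, ordered by the NOD.g7 level; bars are 95% counting intervals and leave out variation between mice. Slfn2 stands highest at 163 and 172, and Slfn9 moves from 3.36 to 0.648.

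Slfn2, whose loss makes T cells leave their resting state and which protects tRNA from cleavage, was the most abundant member, at an RPKM of 163 and 172. It made up 57.6% and 61.1% of the summed family level, and 182 kept genes stood above it in NOD.g7. The log2 ratio of Slfn2 was 0.08, a plain fold of 1.05 with a 95% counting interval of 1.03 to 1.08. The other short member, Slfn1, a growth-restraining gene of thymocytes and T cells, was at 55.5 and 58.9, with a log2 ratio of 0.08 and a fold of 1.06 (counting interval 1.02 to 1.10). Slfn2 stood 2.93 and 2.92 times above Slfn1, so the short members stood in nearly the same proportion in each library. Of all kept genes, 48.0% had an absolute log2 ratio no larger than that of Slfn2.

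The intermediate members were expressed at low levels. Slfn4, which is induced in macrophages and other myeloid cells, was at an RPKM of 4.46 and 5.96, a log2 ratio of 0.35 and a fold of 1.34 (counting interval 1.23 to 1.46). Slfn3, its nearest relative, was at 2.90 and 3.43, a log2 ratio of 0.18 and a fold of 1.18 with a counting interval of 1.004 to 1.40 that begins almost at no difference. Neither passed the size rule. For Slfn4, 95.1% of kept genes had a lower ratio. The monocyte and macrophage markers were higher in the same library, with 16 of 16 kept markers above 0, a median log2 ratio of 0.69, a summed RPKM of 1008 and 1273, and Cd14, Cd163 and Vcam1 past the size rule. The neutrophil markers were at a summed RPKM of 900 and 1169, with 9 of 13 higher and a median of 0.19. No marker of either list was at 0, and their part in the values of Slfn4 and Slfn3 was not tested.

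All long members were lower in NOD.L7, to very unequal degrees. Slfn5, a nuclear member of the family, was at an RPKM of 19.5 and 17.1, a log2 ratio of -0.18 and a fold of 0.880 (counting interval 0.848 to 0.913). Slfn8 was at 34.0 and 23.4, a log2 ratio of -0.52 and a fold of 0.689 (counting interval 0.665 to 0.715), and 1.45% of kept genes had a lower ratio. In absolute level the difference of Slfn8, -10.6 RPKM, was wider than those of Slfn5 (-2.34) and Slfn9 (-2.71).

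Slfn9, a close relative of Slfn8, had an RPKM of 3.36 in the NOD.g7 library and of 0.648 in the NOD.L7 library, a log2 ratio of -1.40. The plain fold was 0.193, with a counting interval of 0.160 to 0.231 from about 592 and 151 fragments. By log2 ratio Slfn9 was at rank 12 from the lowest of the 11141 kept genes, and 4 kept genes had a lower plain fold. Slfn9 was kept through the NOD.g7 library alone, being under an RPKM of 1 in NOD.L7, so its rank is only a description. Its counting interval lay below those of Slfn8 and Slfn5, and Slfn8 stood 10.1 and 36.1 times above Slfn9.

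**Figure D2:**
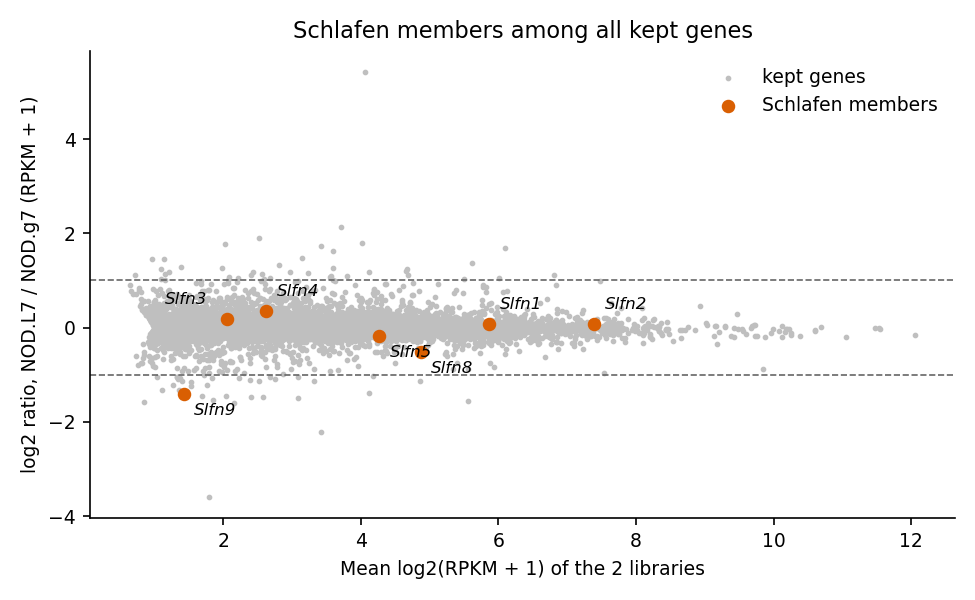
Log2 ratio of NOD.L7 over NOD.g7 (vertical) against the mean log2(RPKM + 1) of the 2 libraries (horizontal) for all 11141 kept genes in grey and the 7 Schlafen members in orange; dashed lines mark the size rule. Slfn9, at -1.40, is the 1 member past a dashed line, and Slfn8 is at -0.52.

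The order of levels in NOD.g7 was Slfn2, Slfn1, Slfn8, Slfn5, Slfn4, Slfn9 and Slfn3. In NOD.L7 the order was the same except that Slfn3 stood above Slfn9. In NOD.g7 the counting interval of Slfn9 (3.10 to 3.64) overlapped that of Slfn3 (2.54 to 3.29). No interval of their ratio was computed, so the order of these neighbours is uncertain there. In NOD.L7 that of Slfn9 (0.549 to 0.760) lay below that of Slfn3 (3.09 to 3.80). All other neighbours in the order were apart in both libraries, and the spread between mice is not known.

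Slfn9 has a near relative, Slfn8, that is far more abundant, so the words they share bear on its value. Each transcript was divided into all its overlapping words of 50 bases, as short reads would sample it. Of the words of Slfn9, 10.2% also occurred in a transcript of Slfn8, 12.7% in Slfn10-ps, a pseudogene next to Slfn8, and 17.6% in any other gene. With words of 100 bases the shares were 1.33%, 4.81% and 5.87%. The words come from the C57BL/6J reference. Sequence variants between the genotypes, and between NOD mice and the reference, were not analysed here.

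**Figure D3:**
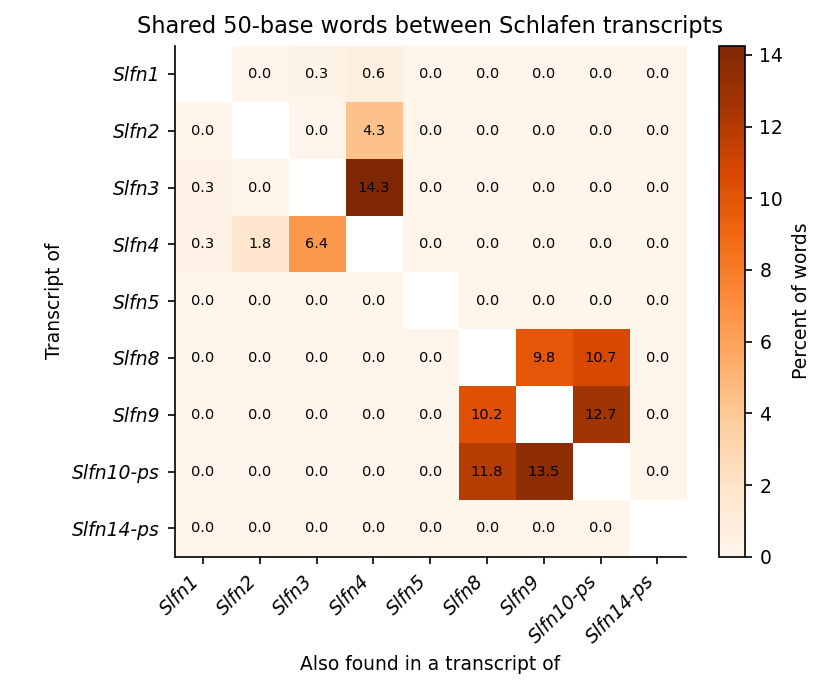
Percent of the 50-base words of each Schlafen transcript (rows) that also occur in a transcript of another Schlafen gene (columns). Slfn8, Slfn9 and Slfn10-ps form 1 block, at 9.8 to 13.5%, and Slfn3 and Slfn4 another, at 14.3 and 6.4%, while Slfn5 shares no word with the rest. Slfn2 shares 4.3% of its words with Slfn4, and Slfn4 1.8% of its words with Slfn2.

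Other members shared fewer words with relatives or shared them with each other. Of the words of Slfn3, 14.3% occurred in Slfn4 and 23.7% in any other gene. With words of 75 bases these shares were 2.58% and 9.87%, and with words of 100 bases they were 0% and 5.42%. How uncertain the levels of these neighbours are thus depends on the read length, which is not known here. For Slfn4 the shares at 50 bases were 6.45% in Slfn3 and 11.6% in any other gene, and the latter was 0.285% at 100 bases. For Slfn8 they were 9.82% in Slfn9 and 15.4% in any other gene, and the latter was 3.71% at 100 bases. Of Slfn5's words of 50 bases 11.8% occurred in another gene, none of it a Schlafen gene. For Slfn2 the share in any other gene was 4.27%, all of it in Slfn4, and for Slfn1 it was 0.606%. Of the words of Slfn4, 1.77% occurred in Slfn2 at 50 bases and 0.0518% at 100 bases. Slfn2 stood at an RPKM of 163 and 172, against 4.46 and 5.96 for Slfn4. In the annotation, antisense genes overlap Slfn5 (Slfn5os) and Slfn2 (Gm20234), and a microRNA gene, Mir7679, lies within Slfn9. Whether strand was used in counting is not stated in the sources, so reads of Slfn5os cannot be told from those of Slfn5 where they overlap. Words were searched on both strands, and no word of Slfn2 outside those found in Slfn4 occurred in another gene, Gm20234 included.

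The members lie in 1 cluster on chromosome 11 of mm9, from 82765604 to 83028656, a span of 263 kb. Along the chromosome the order is Slfn5 (82765604 to 82778352), Slfn9 (82793805 to 82805332), Slfn8 (82815660 to 82834312), Slfn2 (82878614 to 82884180), Slfn1 (82930347 to 82936161), Slfn4 (82988688 to 83003718) and Slfn3 (83004832 to 83028656). The lower members were the first 3 and the higher members the next 4, which follows the order of the long, short and intermediate genes. Between Slfn8 and Slfn2 lies the pseudogene Slfn10-ps (82841630 to 82854035), at 3.91 and 3.42, a log2 ratio of -0.15 and a fold of 0.876 (counting interval 0.787 to 0.974). Beyond Slfn3 the row Slfn14-ps (83088614 to 83100228), which RefSeq now lists as the protein-coding gene Slfn14, was at 0.985 and 0.296. It was not kept because it was under an RPKM of 1 in both libraries. Its plain fold was 0.301 (counting interval 0.223 to 0.402), and its long-type coding sequence has 2697 bases. Slfnl1, a Schlafen-like gene on chromosome 4, was at 0.0239 and 0.0300, too few reads to compare.

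**Figure D4:**
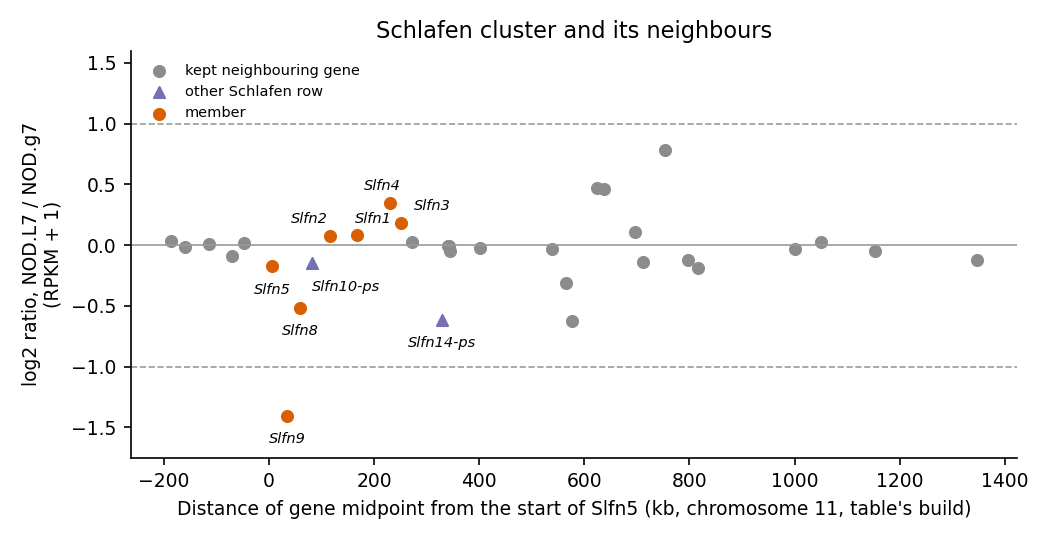
Log2 ratio of NOD.L7 over NOD.g7 (vertical) against distance from the start of Slfn5 in kb (horizontal) for the 7 members (orange), Slfn10-ps and Slfn14-ps (triangles) and the kept neighbouring genes (grey); dashed lines mark the size rule. Slfn5, Slfn9, Slfn8 and Slfn10-ps lie below 0, the next 4 members lie above 0, and the gene just beyond Slfn3 is at 0.02.

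Within 1 Mb on each side of the cluster 24 other genes were kept, with a median log2 ratio of -0.02, beside 0.02 for all kept genes. Of these 24 genes 0 passed the size rule, which 0.709% of all kept genes passed, and 19 lay within 0.25 of 0, as did 86.4% of all kept genes. The nearest row before Slfn5 was Unc45b, a muscle myosin chaperone, which was barely expressed at 0.0309 and 0.0276. The nearest row beyond Slfn3 was AI662270, at 56.9 and 57.8. The widest ratios were those of the T and NK cell chemokine gene Ccl5, at 127 and 81.8 (-0.62), and of Gm11428, at 6.36 and 11.7 (0.78), both beyond Slfn3. No kept neighbour had a ratio as low as that of Slfn9.

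By the distance between pairs of log2(RPKM + 1) values in the 2 libraries, the 5 kept genes most like Slfn9 were Epb4-9, Cldn13, Spna1, Kel and Pdzk1ip1, at distances of 0.12 to 0.25. Epb4-9, which encodes the membrane skeleton protein dematin, was at an RPKM of 3.02 and 0.609. Cldn13, a claudin gene, was at 3.41 and 0.874. Spna1, the alpha-spectrin gene, was at 2.90 and 0.792, the blood group gene Kel at 3.29 and 0.921, and Pdzk1ip1 at 2.69 and 0.731. They lie on chromosomes 14, 5, 1, 6 and 4. With only 2 libraries, likeness means nothing more than similar levels in each.

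Erythroid markers were lower in the library in which Slfn9 and Slfn14-ps were lower. All 12 kept erythroid markers were below 0, at a median log2 ratio of -1.13, and 7 passed the size rule. Of these 7, Trim10 (4.29 and 0.951) and Spna1 (2.90 and 0.792) were kept through the NOD.g7 library alone, as Slfn9 was. Without the filter the erythroid median was -0.9997. The summed RPKM of the 14 rows matched was 175 and 80.4. The anion exchanger gene Slc4a1 was at 22.1 and 3.97 and Rhd at 6.71 and 1.56, whereas the transcription factor gene Gata1 was at 3.05 and 2.72 and Tfrc at 16.3 and 14.5. Hba-a1 was listed at 0 in both libraries. NK cell markers were also lower, with 11 of 11 below 0, a median of -0.75, a summed RPKM of 338 and 194, and Gzma (79.9 and 26.3) and Ncr1 (24.9 and 11.6) past the rule. The part of either cell type in the values of Slfn9, Slfn8 and Slfn14-ps was not tested.

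Markers of the lymphocytes that make up most of the spleen moved less. The 15 T cell markers had a median of 0.04, with 9 higher and none past the size rule, beside ratios of 0.08 for Slfn1 and Slfn2. Of these, Cd8a was at 53.7 and 31.7, Cd8b1 at 81.8 and 54.9 and Trat1 at 26.6 and 36.3. Of 12 B cell markers 11 were lower, at a median of -0.23, a summed RPKM of 3096 and 2545 and none past the rule, with Fcer2a, the low-affinity IgE receptor, at 257 and 132. All T and B cell markers on the lists were kept. Dendritic cell markers had a median near 0 (-0.0043), with Ccr9 at 11.3 and 6.34 and Batf3 at 3.86 and 6.37. The 6 kept markers of megakaryocytes and platelets had a median of 0.17 (Ppbp at 6.16 and 10.1) and the 7 of plasma cells 0.10 (Igj at 165 and 238). These medians rest on few genes: that of the megakaryocyte and platelet list was 0.047 without the filter and 0.34 at a filter of RPKM 5, and at that filter the plasma cell median was 0.30 and the dendritic cell median 0.17. The part of these cell types in the Schlafen values was not tested.

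**Figure D5:**
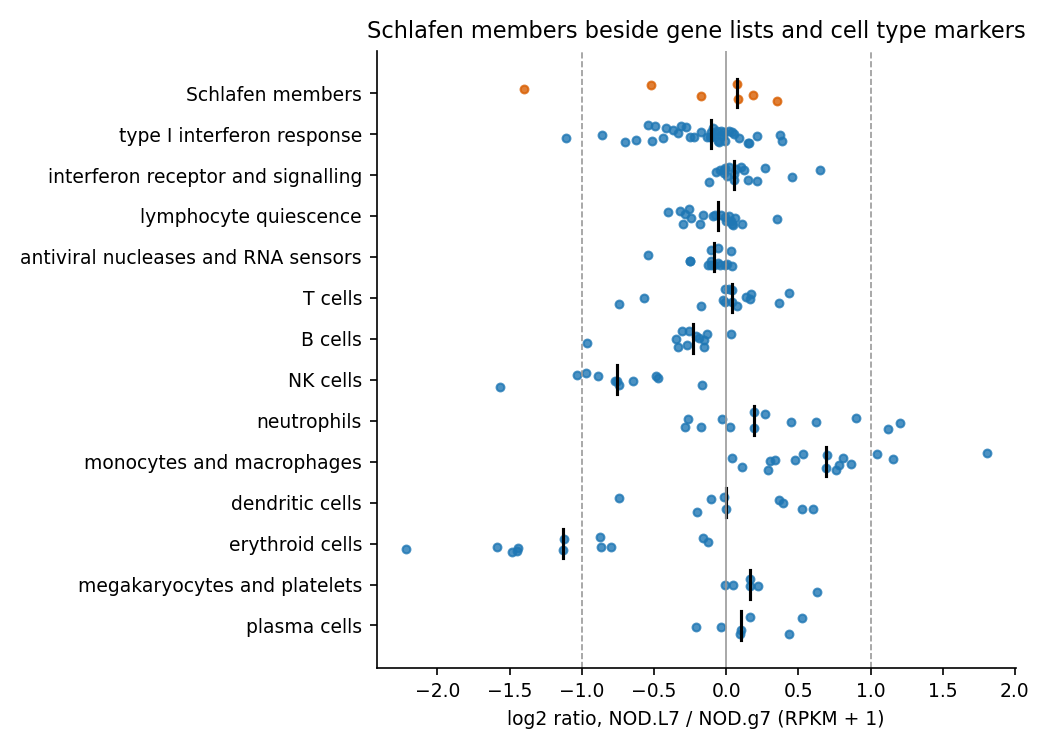
Log2 ratio of NOD.L7 over NOD.g7 (horizontal) for the 7 Schlafen members and for the kept genes of 4 lists and 9 sets of cell type markers; each point is a gene, black bars are medians and dashed lines mark the size rule. The Schlafen members run from -1.40 to 0.35, and the erythroid markers have a median of -1.13.

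The interferon genes were examined because type I interferon induces Schlafen genes. Of 39 kept genes of the type I interferon response 30 were lower in NOD.L7, at a median log2 ratio of -0.10, and 1 passed the size rule, Rsad2, the antiviral protein viperin, at an RPKM of 6.71 and 2.57. With a pseudocount of 0.1 or of 0.5 in place of 1, 2 of these genes passed. The RNA-sensing synthetase genes Oas1a and Oas3 were at 2.60 and 0.988 and at 3.96 and 2.05. Ifit1, an RNA-binding interferon-induced gene, was at 3.95 and 3.82, Ifit2 at 8.76 and 8.92, and Ifit3 at 5.17 and 3.61. The Schlafen median was 0.08, and that of all kept genes was 0.02.

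The receptor and the factors that carry the interferon signal were close between the libraries. The receptor genes Ifnar1 and Ifnar2 were at 23.5 and 23.2 and at 26.7 and 27.0. Stat2 and Irf9, which encode parts of ISGF3, were at 31.0 and 32.3 and at 41.0 and 45.7, with log2 ratios of 0.06 and 0.15. The part of interferon signalling in the Schlafen values was not tested. Of the 18 genes of the receptor and signalling list 12 were higher, at a median of 0.05, and none passed the size rule. The widest were the inhibitor genes Socs3, at 25.9 and 41.1, and Socs1, at 9.13 and 12.9, followed by Irf1, at 64.4 and 77.7.

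Genes of lymphocyte quiescence, the resting state that Slfn2 helps to keep, had a median of -0.06 over 20 genes, with 13 lower, 7 higher and none past the rule. Klf2, a factor that holds T cells at rest, was at 156 and 118, Foxp1 at 55.6 and 44.3 and the antiproliferative gene Tob1 at 12.9 and 16.8, beside 163 and 172 for Slfn2. The list of antiviral nucleases and RNA sensors had a median of -0.08 over 15 kept genes, with 12 lower and none past the rule. Chosen as functional neighbours of the RNA-cleaving Schlafen proteins, it also holds RNA methyltransferase genes and a ribonuclease inhibitor gene. The exonuclease gene Isg20 was at 16.2 and 10.8 and the sensor gene Dhx58 at 7.67 and 6.30. The median of the long Schlafen members was -0.52, which is the value of Slfn8. Of all the lists, those of NK cell and erythroid markers had medians as low, and a link was not tested.

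The deposited values rested on 9.13 and 12.1 Gb of mapped sequence. Gapdh, a gene with many processed copies in the genome, was listed at an RPKM of 2.04 and 2.03, so reads with several matches may be missing from the values. How this affects the shared stretches of Slfn8, Slfn9 and Slfn10-ps or of Slfn4 with Slfn2 and Slfn3 was not tested.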

How the data were processed

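Spleen RNA of NOD.g7 and NOD.L7 mice was measured with 1 library each, from TruSeq RNA libraries per the labels. The authors deposited 1 table of RPKM values per gene. Per the submitters' processing notes, CASAVA 1.8.2 and SAMtools 0.1.18 were used with build mm9, with no role given. Not given in the sources used here are the aligner settings, the gene models and how reads with several matches were handled. The column NOD.LC7 was taken as NOD.L7 and the column NOD as NOD.g7.

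The members and lists were chosen with earlier results of these data known. Log2 ratios used a pseudocount of 1, genes reaching an RPKM of 1 in at least 1 library were kept, and the size rule was an absolute log2 ratio of at least 1. Named genes were the members, other Schlafen rows, the 5 genes nearest to Slfn9, the flanking genes, up to 3 genes of largest absolute ratio per list, and the interferon receptor and ISGF3 genes. Values of a few genes within this rule are left out and not reported here. Genes named beyond these (Ccl5, Gm11428, Ifit1, Ifit2, Ifit3, Trim10, Gata1, Tfrc, Hba-a1 and Gapdh) were chosen after their values were seen. Symbols were also matched through RefSeq synonyms.

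Mapped bases were found from the steps of low RPKM values of single-exon genes under 2500 bases that matched GENCODE M21. Values were whole within 0.15 for 100% of the 144 and 161 values used in the respective libraries. Fragments were approximated from RPKM, the length of the GENCODE transcript whose span was nearest to the table's, and 200 bases per fragment. Fold intervals are exact binomial (Clopper-Pearson) and level intervals exact Poisson, both at 95% and covering counting error only. Protein identity had been planned, and coding sequences were aligned instead, with Biopython 1.88. The calculations used Python 3.11.15, NumPy 2.4.6, pandas 2.3.3 and SciPy 1.17.1, and were tested on simulated data. Other settings tried were a pseudocount of 0.1 or 0.5, leaving out the filter, raising it to an RPKM of 5, centring on the median, a TMM factor, 100 bases per fragment, words of 75 and 100 bases, and a window of 0.5 Mb.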

Additional observations from a re-analysis of the deposited data

How the results depend on the processing

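Variation between mice cannot be seen under any setting. No paired analysis was possible because there is only 1 library of each genotype, and for the same reason none could be left out. All 7 members kept the sign of their log2 ratio under both other pseudocounts, without a filter, with median centring and with the TMM factor, and Slfn9 alone passed the size rule in each of these. At a filter of RPKM 5, Slfn9 and Slfn3 were no longer kept, so 0 of the 5 remaining members passed. The number of all genes past the rule was 166 with a pseudocount of 0.1, 124 with 0.5 and 52 at a filter of RPKM 5, against 79. The 95% counting interval of the Slfn9 fold was 0.160 to 0.231, and 0.170 to 0.219 at 100 bases per fragment. It leaves out variation between mice and any reads counted for the wrong gene. Among the gene lists, the type I interferon count past the rule was 2 with either other pseudocount, against 1, and its median was -0.066 at a filter of RPKM 5, against -0.10. The medians of the megakaryocyte and platelet list (0.047 without a filter, 0.34 at RPKM 5), of plasma cells (0.30 at RPKM 5) and of dendritic cells (0.17 at RPKM 5, from below 0) moved with the filter, which changes the genes they hold. The erythroid median was -0.9997 without a filter and -1.29 at RPKM 5, against -1.13. The erythroid count past the rule was 9 with a pseudocount of 0.1 and 5 at RPKM 5, against 7. With the TMM factor the small medians of T cells and of interferon receptor and signalling genes were 0.018 and 0.035. Shared words became fewer in all 7 members at 75 and 100 bases.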
